A study of Mus musculus with 18 samples.

Results

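The comparison of injured with uninjured sensory neuron cultures a day after axotomy rests on 6 of the 18 RNA-sequencing libraries of a time course, the 3 libraries of cultures collected 24 h post injury (24 HPI) and the 3 control libraries. The libraries were taken by their sample titles, and the replicate number was fitted as a batch. Of 47643 genes listed for each library, 13771 exceeded 1 CPM (the count scaled by the total of the library) in at least 3 of the 18 libraries and were tested, 12398 of them protein coding. Every library came from dorsal root ganglia of e13.5 embryos of CD-1 mice, dissociated and grown as spots, called eDRG spot cultures, in medium with nerve growth factor and with FDU, an antimitotic agent that removes dividing cells. No transgene, knockdown or knockout was applied in either group. Controls were left uninjured and were collected at DIV7, the day in vitro, and the axons of the 24 HPI cultures were severed with a blade 24 h before collection. The labels place the collection of the injured cultures on DIV7, while the study's methods place the injury on that day, so the groups may differ by a day in culture. The labels do not say that the replicates came from separate dissections, so each p-value measures the spread between these libraries, which may be technical.

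Severing the axon of a sensory neuron sends signals to the cell body, where transcription factors such as ATF3 and JUN switch on genes for axon regrowth and cell survival while genes for excitability and synaptic transmission are turned down. AP-1 factors, dimers of FOS, JUN and ATF proteins, bind a short palindromic DNA motif in the control regions of many of these genes. Embryonic neurons in culture are still extending axons when they are cut, and growth genes such as Gap43 can already be abundant before an injury.

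The 6 libraries held 13756966 to 21259468 counts on genes, within the 9478891 to 23082327 of all 18, and a count of 3, taken as the limit of detection, equalled 0.141 to 0.218 CPM. The 10 sensory neuron markers, such as Tubb3, Avil and Prph, summed to 10050 to 10420 CPM in control and 9093 to 9564 CPM at 24 HPI, lower without overlap. Taken singly they were split, with 3 higher and 3 lower at an adjusted p under 0.05 by edgeR's quasi-likelihood test. Their median log2 fold change was -0.02. Tubb3, among the lower, had 2605 to 3131 CPM in control and 2051 to 2449 CPM at 24 HPI and weighs heavily in the sum. All 10 passed the filter on low values, but so did 5 of 7 satellite glia markers and 5 of 7 fibroblast markers. Passing it therefore does not set neurons apart. The 3 neural progenitor markers, Rtn4, Plxna4 and Dpysl3, summed to 4339 to 4728 CPM in control and 4159 to 4394 CPM at 24 HPI. The study describes these cultures as holding sensory neurons and neural progenitors. By level the cultures matched that description, as the neuron and progenitor sums lay far above those of the cell types that follow. The 7 markers of satellite glia summed to 43.8 to 66.6 CPM in control and 48.6 to 94.5 CPM at 24 HPI, and those of Schwann cells to 235 to 323 and 229 to 291 CPM. Marker sums for myeloid cells were 3.56 to 5.34 CPM in control and 6.64 to 7.36 CPM at 24 HPI, groups that did not overlap. For fibroblasts the sums were 4.07 to 12.2 and 5.18 to 17.5 CPM, for neural crest 0.582 to 2.15 and 2.03 to 6.12 CPM, for endothelial cells 1.53 to 1.80 and 1.36 to 2.21 CPM, and for red blood cells 2.94 to 7.14 and 2.42 to 7.62 CPM. Defining markers at or near 0 in all 6 libraries included Mag, Gfap, Ptprc, Cx3cr1, Kdr and Lum. In bulk RNA of this kind, fewer cells of a type and less RNA per cell cannot be told apart.

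At 24 HPI, 88 genes were higher than control by more than 2-fold with an adjusted p under 0.05, which was 0.639% of the genes tested, and 25 were lower by as much, which was 0.182% (edgeR's quasi-likelihood test, two-sided, Benjamini-Hochberg adjustment). These 113 genes are referred to as called. The genes called higher included the uridine phosphorylase Upp1, the retinol dehydrogenase Dhrs9, the neuropeptide Nts, the immediate early genes Fosb, Fos, Arc and Junb, the p53 targets Phlda3 and Eda2r, and the small heat shock protein gene Hspb1. Genes of cholesterol and fatty acid synthesis, sodium channels, tubulins and synaptic vesicle proteins were lower by less than 2-fold, 28 of 38 genes in the lipid list among them. At any size of change, 825 genes passed the adjusted p as higher, 5.99% of those tested, and 1243 as lower, 9.03%. The counts of list members past the test, given below, are to be read against these shares. An unadjusted p under 0.05 was reached by 3932 genes, and the CPM of the groups did not overlap for 2070, 15% of the genes tested.

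Genes called higher were expressed at low levels. Their median was 0.810 CPM in control and 2.40 CPM at 24 HPI, and their median log2 fold change was 1.31. The 88 genes held 85 protein-coding genes, all 88 were higher at 24 HPI in each of the 3 batches, the groups did not overlap for 68, and 8 changed by more than 4-fold. The genes called lower had a median of 1.78 CPM in control and 0.807 CPM at 24 HPI, with a median log2 fold change of -1.14. They held 11 protein-coding and 14 other genes, 24 were lower in every batch, and the groups did not overlap for 16. Smaller changes were the rule among abundant genes, and the median log2 fold change was 0.33 over the genes past the test as higher and -0.30 over those past it as lower.

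**Figure D1:**
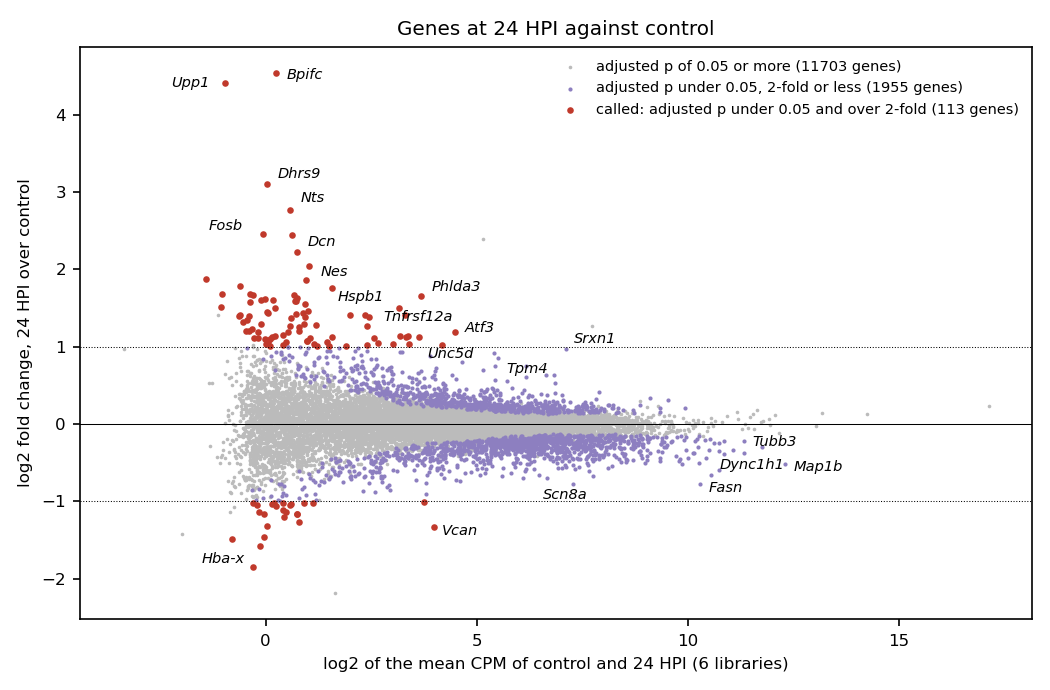
Log2 fold change of 24 HPI over control (vertical axis) against the log2 of the mean CPM of the 6 libraries (horizontal axis) for the 13771 genes tested, each point a gene, coloured by whether it was called, passed the adjusted p by less than 2-fold, or did not pass. The 113 called genes lie mostly at the low-expression end, and the abundant genes that passed lie close to the line of no change.

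Of the 88 genes called higher, 69 had a promoter in the RefSeq table of assembly GRCm38.p6, which covers 250 bases before to 50 bases after the start of each gene, and 8 of the 69, 11.6%, held the AP-1 motif TGAGTCA or its other strand TGACTCA. The same letters stood in 3.08% of the 10143 promoters of tested genes and in 5.17% of all 27025 promoters. The cyclic AMP response element TGACGTCA, a palindrome, was in 0 of the 69, 3.45% of those of tested genes and 1.88% of all, and the ATF4-C/EBP motif TGATGCAA or its other strand TTGCATCA was in 2 of the 69, against 0.641% of those of tested genes and 0.929% of all. Among the 10 promoters of genes called lower, 1 held AP-1 and 1 ATF4-C/EBP. None of these motifs contains another. A match describes the letters of the window and is no evidence of binding, and its absence says only that these letters are not there. The promoters below belong to the genes with the largest log2 fold changes that held a motif, and are shown because the motif lies in the 250 bases before the start of a gene that changed most. The 4 genes Bpifc, Upp1, Dhrs9 and Nts held AP-1 and the 4930438A08Rik gene held ATF4-C/EBP. The first base of the motif lay at -51 in Bpifc, -45 in Upp1, -18 in Dhrs9, -207 in Nts and -33 in 4930438A08Rik, counted from the start site. Each line gives the 250 bases before the start site from 5′ to 3′ on the strand of the gene, in lower case with the motif in capitals. The positions are chr10:86011861-86012110 on the minus strand for Bpifc, chr11:9117758-9118007 on the plus strand for Upp1, chr2:69380212-69380461 on the plus strand for Dhrs9, chr10:102490419-102490668 on the minus strand for Nts, and chr11:58274578-58274827 on the plus strand for 4930438A08Rik.
Bpifc: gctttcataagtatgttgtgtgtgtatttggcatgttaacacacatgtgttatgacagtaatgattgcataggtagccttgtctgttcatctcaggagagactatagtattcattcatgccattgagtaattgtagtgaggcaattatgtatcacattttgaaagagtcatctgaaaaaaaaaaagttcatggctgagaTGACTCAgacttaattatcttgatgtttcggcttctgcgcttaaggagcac
Upp1: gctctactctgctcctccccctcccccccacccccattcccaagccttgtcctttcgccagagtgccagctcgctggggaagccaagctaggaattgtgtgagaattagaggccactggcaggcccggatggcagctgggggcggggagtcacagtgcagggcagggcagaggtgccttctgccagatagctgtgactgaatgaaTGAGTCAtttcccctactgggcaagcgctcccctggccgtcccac
Dhrs9: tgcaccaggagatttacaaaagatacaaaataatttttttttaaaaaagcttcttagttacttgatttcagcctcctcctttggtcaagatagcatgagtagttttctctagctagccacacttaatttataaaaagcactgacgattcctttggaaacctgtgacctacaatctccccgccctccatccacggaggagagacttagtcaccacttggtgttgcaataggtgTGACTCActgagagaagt
Nts: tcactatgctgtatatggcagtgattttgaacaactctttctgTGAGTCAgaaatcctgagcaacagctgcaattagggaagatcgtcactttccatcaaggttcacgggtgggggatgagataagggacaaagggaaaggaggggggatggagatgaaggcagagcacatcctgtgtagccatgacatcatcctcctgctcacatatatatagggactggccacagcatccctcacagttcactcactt
4930438A08Rik: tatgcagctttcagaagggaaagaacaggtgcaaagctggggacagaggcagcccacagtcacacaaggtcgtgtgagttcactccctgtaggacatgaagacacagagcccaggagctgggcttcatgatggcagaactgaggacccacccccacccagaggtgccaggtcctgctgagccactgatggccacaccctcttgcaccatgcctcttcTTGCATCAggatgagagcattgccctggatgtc

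Bpifc, a member of the BPI family of lipid-binding proteins (ENSMUSG00000050108.12, chromosome 10 of GRCm38 from 85959340 to 86011895), had the largest fitted change. It had 0.0490, 0.145 and 0.0999 CPM in the control libraries and 3.23, 2.23 and 1.32 CPM at 24 HPI. Its 3 control libraries held 1, 2 and 2 counts, at or under the limit of detection, and the 24 HPI libraries 56, 46 and 28. The summed counts of 5 and 130 gave a depth-scaled ratio of 23.8, with a 95% interval of 9.94 to 74.5 that covers counting error only. Upp1, which splits uridine into uracil and ribose phosphate (ENSMUSG00000020407.13, chromosome 11 from 9118103 to 9136170), was likewise near 0 in control, with 0, 1 and 1 counts. It had 9, 25 and 25 counts at 24 HPI, or 0.519, 1.21 and 1.18 CPM, and a ratio of 27.0 with a 95% interval of 7.15 to 228. Each library at 24 HPI exceeded every control library for both genes (adjusted p = 1.49e-06 for Bpifc and 2.81e-05 for Upp1 by edgeR's quasi-likelihood test).

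Dhrs9, which oxidizes retinol and steroids (ENSMUSG00000027068.6, chromosome 2 from 69380445 to 69404533), had 0.0979, 0.291 and 0.250 CPM in control and 1.56, 2.18 and 1.69 CPM at 24 HPI. The groups were far apart, with a log2 fold change of 3.10 (standard error 0.41, adjusted p = 3.46e-05). Another enzyme of retinol metabolism, the alcohol dehydrogenase Adh7, had 0.636, 0.509 and 0.450 CPM in control and 1.85, 1.07 and 0.988 CPM at 24 HPI. The change of 1.29 in log2 (standard error 0.33, adjusted p = 1.08e-02) did not pass without control replicate 1 (1.13) or 24 HPI replicate 1 (1.21). The remaining retinoid genes held a single gene that was lower, Rdh11 at -0.23. So 2 of 16 tested members passed as higher (12.5%) and 1 as lower (6.25%), with a median log2 fold change of 0.04. Among the 20 tested genes of nucleoside metabolism, 2 passed as higher, Upp1 and the nucleoside transporter Slc29a1 (0.93, standard error 0.23), and 1 as lower, the pyrimidine synthesis enzyme Cad (-0.37, standard error 0.08). Slc29a1 did not pass without 24 HPI replicate 1 (0.72), nor Rdh11 without control replicate 2 (-0.19) or 24 HPI replicate 3 (-0.19).

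Nts, which encodes the neuropeptide neurotensin (ENSMUSG00000019890.3, chromosome 10 from 102481756 to 102490486), had 0.196, 0.218 and 0.649 CPM in control and 2.89, 3.24 and 1.69 CPM at 24 HPI, so the groups did not overlap, and the log2 fold change was 2.77 (standard error 0.38, adjusted p = 5.48e-05). It was the only one of 14 tested neuropeptide genes to pass in either direction. Vgf, the precursor of several secreted peptides, had a log2 fold change of -0.02 (standard error 0.08) and the granin Chga -0.17 (standard error 0.07), neither past the test.

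Immediate early and AP-1 genes, which are switched on within minutes of a stimulus and encode transcription factors and synaptic regulators, were higher in 8 of 19 tested members and lower in 0, and their median log2 fold change was 0.25 against 0.00 over all genes tested. That median was 0.095 over members above 1 CPM in all 18 libraries. Fosb, a subunit of AP-1 (ENSMUSG00000003545.3, chromosome 7 from 19302696 to 19310051), had 0.196, 0.363 and 0.350 CPM in control and 1.62, 1.36 and 1.83 CPM at 24 HPI. Every injured library exceeded every control library, with a log2 fold change of 2.46 (standard error 0.43, adjusted p = 5.71e-04). Fos had 1.03, 1.74 and 0.500 CPM in control and 2.31, 2.66 and 3.10 CPM at 24 HPI, also without overlap. The log2 fold change of Fos was 1.39 (standard error 0.35, adjusted p = 9.94e-03), and it was 0.83 and not past the test without control replicate 3. Arc, which encodes a synaptic protein that shuttles RNA, had 1.13, 0.800 and 0.999 CPM in control and 2.42, 1.89 and 3.86 CPM at 24 HPI, a log2 fold change of 1.44 (standard error 0.22, adjusted p = 1.82e-04). The AP-1 subunit Junb had a log2 fold change of 1.01 (standard error 0.21, adjusted p = 2.78e-03), which was under 2-fold without control replicate 1 (0.82) or 24 HPI replicate 3 (0.93). Jun itself, with 47.1, 30.1 and 39.8 CPM in control and 42.2, 34.2 and 35.9 CPM at 24 HPI, overlapped between the groups (-0.06, standard error 0.10, adjusted p = 0.743).

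Atf3, a stress-induced factor that marks injured sensory neurons (ENSMUSG00000026628.13, chromosome 1 from 191170296 to 191218039), had 7.34, 13.96 and 19.3 CPM in control and 17.8, 45.9 and 29.5 CPM at 24 HPI. The lowest injured library fell within the control range, while in each batch the injured library exceeded the control of the same number. Its log2 fold change of 1.19 (standard error 0.22, adjusted p = 1.10e-03) was 0.98 without control replicate 1 and 0.82 without 24 HPI replicate 2, both under 2-fold. Regeneration-associated genes, a group of factors and growth proteins known from injured nerve, were higher in 5 of 29 tested members (17.2%) and lower in 2 (6.90%). Over all genes tested these shares were 5.99% and 9.03%. The median of the list was 0.16, and it was 0.05 without 24 HPI replicate 2 and 0.03 over members above 1 CPM in all 18 libraries. Of the list, 5 members were higher. The 5 were Atf3, Nts, Hspb1, the urokinase receptor Plaur and the cytokine receptor Tnfrsf12a. Plaur had 0.734, 0.218 and 0.0999 CPM in control and 1.73, 0.968 and 0.800 CPM at 24 HPI (log2 fold change 1.68, standard error 0.39, adjusted p = 5.36e-03). Gap43, the growth cone protein most used as a mark of regrowth, had 1257, 1075 and 1142 CPM in control and 1170, 1188 and 1164 CPM at 24 HPI. These values overlapped, with a log2 fold change of 0.01 (standard error 0.06, adjusted p = 0.926). Of the transcription factors that the study listed as upregulated, 26 were tested, 8 passed as higher and 0 as lower, with a median of 0.34. That list was chosen on these samples, so its direction is not independent evidence. Members past the test beside the AP-1 genes and Atf3 included the zinc finger factor Zbtb42 (1.58, standard error 0.34).

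**Figure D2:**
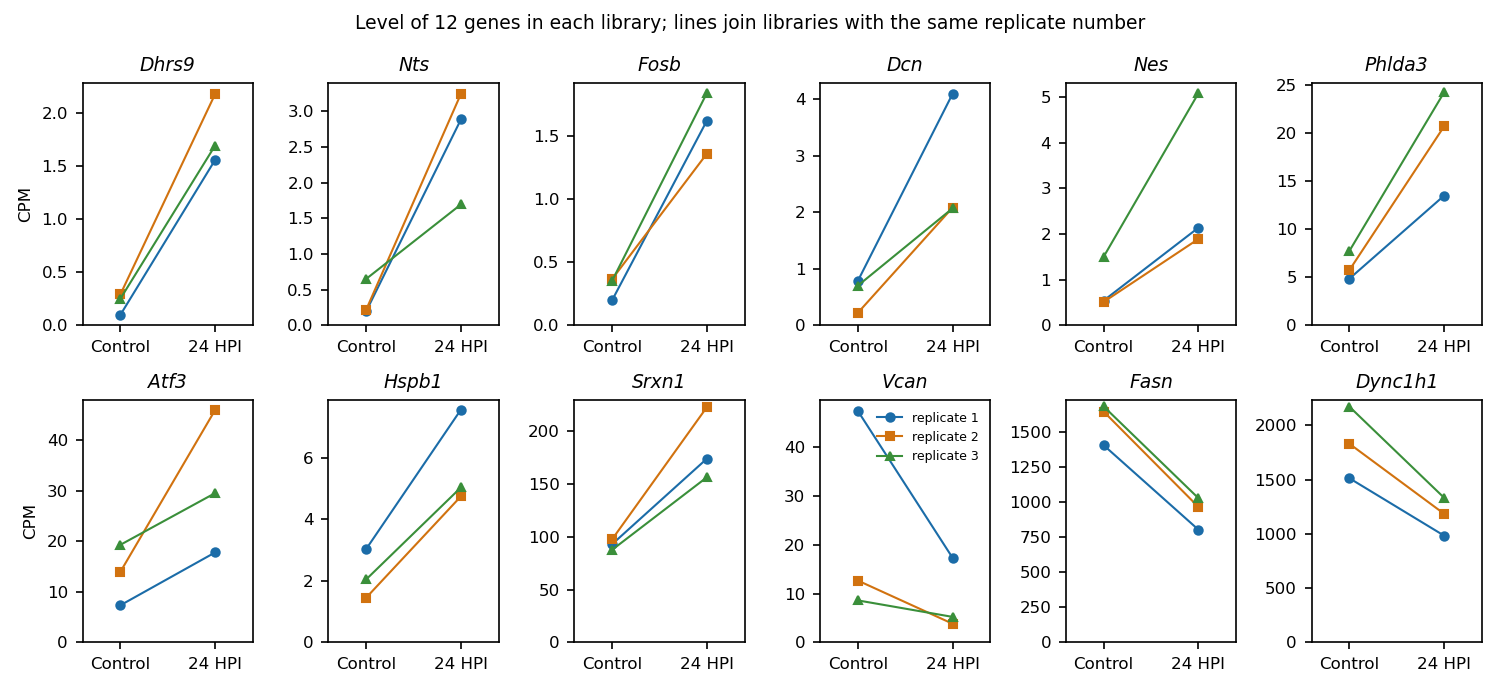
CPM (vertical axis) of 12 genes in each control and 24 HPI library, each point a library, with lines joining libraries of the same replicate number. Every line rises for Dhrs9, Nts, Fosb, Dcn, Nes, Phlda3, Atf3, Hspb1 and Srxn1 and falls for Vcan, Fasn and Dync1h1, and the groups overlap for Atf3 and Vcan.

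Among 22 tested targets of p53, the factor that links DNA damage and other stress to growth arrest and apoptosis, 12 passed as higher and 0 as lower, and the median log2 fold change was 0.24. Phlda3, an inhibitor of AKT signalling (ENSMUSG00000041801.5, chromosome 1 from 135766119 to 135769136), had 4.85, 5.74 and 7.74 CPM in control and 13.504, 20.7 and 24.3 CPM at 24 HPI. No control library came near an injured one, and the log2 fold change of 1.66 (standard error 0.11, adjusted p = 1.55e-08) was called in all 17 alternatives. Trp53inp1, which promotes p53 activity and autophagy, had 20.2, 30.7 and 37.6 CPM in control and 48.8, 61.8 and 55.8 CPM at 24 HPI (0.92, standard error 0.11, adjusted p = 1.61e-05). Eda2r, a receptor of the tumour necrosis factor family that is induced by p53, had 0.685, 1.24 and 1.20 CPM in control and 1.44, 2.42 and 3.29 CPM at 24 HPI (1.20, standard error 0.25, adjusted p = 2.27e-03). The cell cycle inhibitor Cdkn1a, the target of p53 most often measured, had a log2 fold change of 0.12 (standard error 0.11, adjusted p = 0.540), and so did not pass.

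The BCL2 family, which sets whether mitochondria release the signal for apoptosis, had 6 of 13 tested members higher and 0 lower, with a median of 0.19. The members that passed act in both directions. Bok, a promoter of apoptosis, had 6.41, 3.998 and 4.95 CPM in control and 9.81, 7.80 and 7.76 CPM at 24 HPI (0.72, standard error 0.12, adjusted p = 2.34e-04). Its groups did not overlap. The p53 target Bbc3, which encodes the killer protein PUMA, had 0.41 (standard error 0.11), and Bcl2, which protects from apoptosis, had 0.41 (standard error 0.11). Bcl2 did not pass without control replicate 1 (0.39) or replicate 3 (0.33), or without 24 HPI replicate 2 (0.37), and Bbc3 did not pass without control replicate 1 (0.36) or 2 (0.38), or 24 HPI replicate 2 (0.31) or 3 (0.39). The survival genes Mcl1 (-0.03, standard error 0.05) and Bcl2l2 (-0.00, standard error 0.06) did not pass.

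Cell cycle and replication genes had 6 of 35 tested members higher, 17.1% against 5.99% of all genes tested, and 0 lower, with a median of 0.15. Mcm6, a subunit of the replicative helicase, had 13.46, 11.1 and 12.9 CPM in control and 21.2, 19.1 and 18.3 CPM at 24 HPI, without overlap (0.63, standard error 0.08, adjusted p = 1.62e-05). The topoisomerase Top2a, a mark of dividing cells, had 0.441, 0.582 and 0.649 CPM in control and 2.31, 0.726 and 1.50 CPM at 24 HPI, and its log2 fold change of 1.44 (standard error 0.36) did not pass without control replicate 1 (1.08) or 24 HPI replicate 1 (1.06). Cdkn2c, an inhibitor of cyclin-dependent kinases, had 1.39 (standard error 0.37) and did not pass without control replicate 1 (1.08). Nestin (Nes), an intermediate filament of neural crest and progenitor cells and the 1 tested marker of neural crest, had 0.538, 0.509 and 1.50 CPM in control and 2.14, 1.89 and 5.08 CPM at 24 HPI. This change of 1.86 in log2 (standard error 0.45, adjusted p = 7.14e-03) did not pass without control replicate 1 (1.46) or 24 HPI replicate 3 (1.40). Nes itself made up most of the neural crest sums given above. The other markers of that list had low counts, Foxd3 with 2, 1 and 9 in control and 0, 2 and 9 at 24 HPI. Sox2 had 3, 0 and 4 counts in control and 3, 1 and 13 at 24 HPI. The part of neural crest cells in these changes was not tested.

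Of 57 tested genes of the extracellular matrix, integrins and matrix proteases, 7 passed as higher, 12.3% against 5.99% of all genes tested, and 4 as lower, 7.02% against 9.03%, with a median of -0.00. Decorin (Dcn), a small proteoglycan of connective tissue, had 0.783, 0.218 and 0.699 CPM in control and 4.10, 2.08 and 2.07 CPM at 24 HPI. It did not overlap between the groups and had a log2 fold change of 2.22 (standard error 0.27, adjusted p = 1.58e-05). Dcn is also 1 of the 7 fibroblast markers, of which 5 were tested. Of these 5, Dcn alone passed, and 4 had a log2 fold change above 0 and 1 below. The collagen genes Col1a2 (0.55, standard error 0.64) and Col3a1 (0.60, standard error 0.79) did not pass. Pdgfrb, which did not pass either, had 2.105, 1.526 and 2.198 CPM in control and 1.5, 1.356 and 1.929 CPM at 24 HPI, lower in each batch. The part of fibroblasts in the change of Dcn was not tested. Itga5, the fibronectin receptor subunit, had 0.734, 1.38 and 1.15 CPM in control and 2.77, 2.81 and 3.06 CPM at 24 HPI (1.46, standard error 0.29, adjusted p = 1.54e-03). Itgb5, a vitronectin receptor subunit, had 1.59 (standard error 0.36), and Cd109, a surface protein that binds TGF-beta, had 1.59 (standard error 0.25). In the other direction, versican (Vcan), a large proteoglycan that repels axons (ENSMUSG00000021614.16, chromosome 13 from 89655312 to 89742509), had 47.3, 12.6 and 8.59 CPM in control and 17.3, 3.83 and 5.22 CPM at 24 HPI. Replicate 1 was the highest in each group, so the groups overlapped although every injured library was below the control of its batch (-1.33, standard error 0.21, adjusted p = 2.20e-04).

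Hspb1, a small heat shock protein that stabilizes the cytoskeleton and protects injured neurons (ENSMUSG00000004951.10, chromosome 5 from 135887919 to 135889563), had 3.04, 1.45 and 2.05 CPM in control and 7.56, 4.75 and 5.03 CPM at 24 HPI. All injured libraries lay above all controls (1.41, standard error 0.17, adjusted p = 1.86e-05). Its relative Hspb8 had 99.8, 96.2 and 71.1 CPM in control and 138, 159 and 119 CPM at 24 HPI (0.63, standard error 0.07, adjusted p = 8.19e-06). Apart from these 2 genes, the heat shock and unfolded protein response list had no member higher, 7 of 32 were lower, and the cytosolic chaperones Hsp90ab1 (-0.06, standard error 0.05) and Hsp90aa1 (0.05, standard error 0.05) did not pass. The integrated stress response, the programme run by ATF4 when translation is restrained, had 1 of 28 tested members higher and 9 lower, with a median of -0.10. The cystine transporter Slc7a11 was among the lower members, with 172, 115 and 91.6 CPM in control and 116, 102 and 64.4 CPM at 24 HPI (-0.43, standard error 0.06, adjusted p = 1.00e-04). Among 31 tested targets of NRF2, which governs the defence against oxidants, 4 passed as higher (12.9%) and 3 as lower (9.68%). Over all genes tested these shares were 5.99% and 9.03%. Srxn1, which restores oxidized peroxiredoxins (ENSMUSG00000032802.8, chromosome 2 from 152105516 to 152111376), had 92.8, 97.3 and 87.5 CPM in control and 174, 222 and 156 CPM at 24 HPI. The groups were well separated, and the log2 fold change of 0.97 (standard error 0.07, adjusted p = 1.55e-08) lay just under 2-fold. The metal-binding metallothioneins Mt1 (0.53, standard error 0.10) and Mt2 (0.61, standard error 0.09) were higher too.

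Cholesterol and fatty acid synthesis had the largest share of members past the test as lower among the lists of gene function. Neurons make these lipids for the membrane of growing axons, under the control of the SREBP factors. Of 38 tested genes, 28 passed as lower, 73.7% against 9.03% of all genes tested, 0 as higher, and none of the 38 had a log2 fold change above 0. The median was -0.31. Fasn, the fatty acid synthase (ENSMUSG00000025153.9, chromosome 11 from 120805846 to 120824547), had 1409, 1649 and 1686 CPM in control and 806, 969 and 1031 CPM at 24 HPI. Every injured library was below every control library, with a log2 fold change of -0.77 (standard error 0.06, adjusted p = 4.54e-08). The cholesterol exporter Abca1 had 93.2, 101 and 103 CPM in control and 61.9, 70.4 and 66.6 CPM at 24 HPI (-0.59, standard error 0.09). Stard4, which carries cholesterol between membranes, had 124, 177 and 133 CPM in control and 88.5, 122 and 85.0 CPM at 24 HPI (-0.56, standard error 0.09). Dhcr7, the last enzyme of cholesterol synthesis, had a log2 fold change of -0.55 (standard error 0.07), and its groups overlapped. Chosen after its value was seen, Srebf2, which encodes the factor that drives the pathway, was at -0.32. The 2 most abundant members that did not pass were Fdft1 (-0.13, standard error 0.05) and Msmo1 (-0.09, standard error 0.07).

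**Figure D3:**
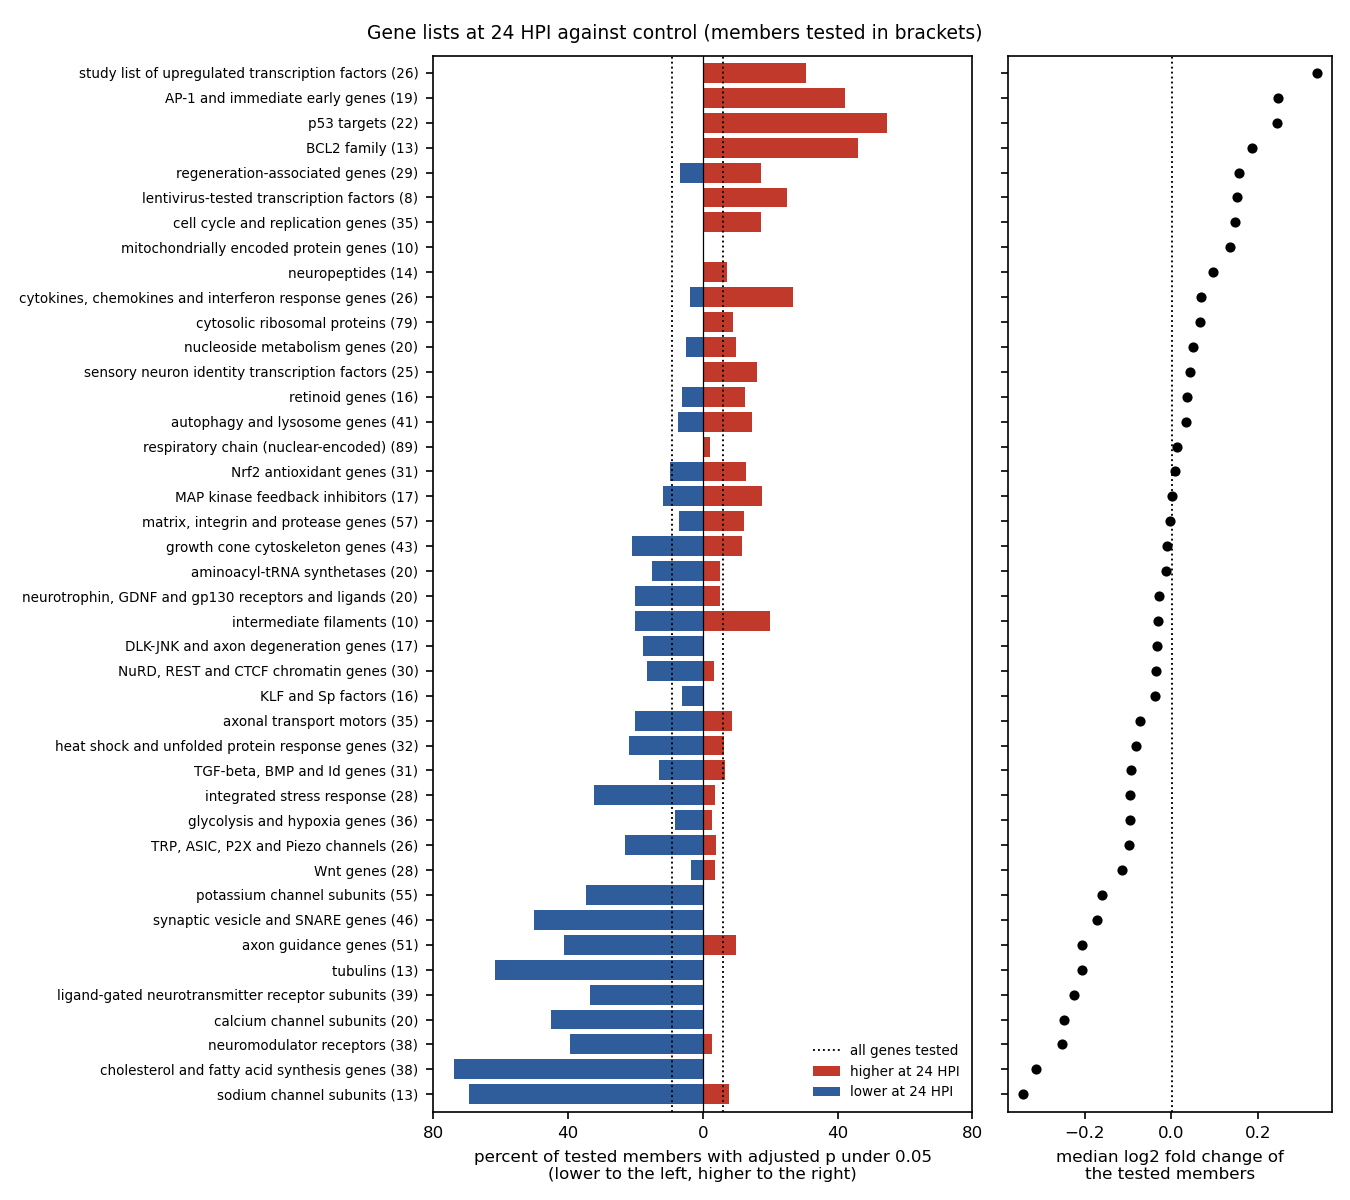
Percent of the tested members of each gene list with an adjusted p under 0.05, drawn to the right for higher and to the left for lower at 24 HPI, and beside it the median log2 fold change of the list. Dotted lines give the same for all genes tested, 5.99% higher, 9.03% lower and a median of 0.00, and the cholesterol and fatty acid list reaches 73.7% lower, the sodium channels 69.2% lower and the p53 targets 54.5% higher.

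Ion channel genes, which set the excitability of sensory neurons, had more members lower than higher in each family listed here. The summed neuron markers were lower as well, as given above, although singly 3 of the 10 passed as higher and 3 as lower. Their part in the lower channel, synaptic and tubulin genes was not tested. Of 13 tested sodium channel subunits, 9 passed as lower and 1 as higher, with a median of -0.34. Scn8a, which encodes Nav1.6 of the axon initial segment and nodes (ENSMUSG00000023033.14, chromosome 15 from 100869858 to 101045938), had 110, 129 and 140 CPM in control and 63.1, 83.5 and 88.8 CPM at 24 HPI. The groups did not overlap, and the log2 fold change was -0.70 (standard error 0.06, adjusted p = 1.38e-07). Scn1a, which encodes Nav1.1, had 69.0, 66.0 and 93.7 CPM in control and 49.4, 46.8 and 66.1 CPM at 24 HPI (-0.50, standard error 0.07, adjusted p = 3.57e-05). The pain-related channel gene Scn9a had 613, 581 and 602 CPM in control and 483, 419 and 461 CPM at 24 HPI (-0.41, standard error 0.06, adjusted p = 6.88e-05).

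Calcium channel subunits were lower in 9 of 20 tested members, potassium channel subunits in 19 of 55 and subunits of ligand-gated receptors in 13 of 39, with 0 higher in each list. Their medians were -0.25, -0.16 and -0.23. Cacna1b, the N-type calcium channel of presynaptic terminals, had 397, 421 and 487 CPM in control and 291, 318 and 341 CPM at 24 HPI (-0.47, standard error 0.08, adjusted p = 5.22e-04). The NMDA receptor subunit Grin2b had 15.9, 14.03 and 14.2 CPM in control and 9.29, 9.49 and 8.00 CPM at 24 HPI (-0.73, standard error 0.12, adjusted p = 3.88e-04). The groups of both genes were apart. Kcnk18, a background potassium channel of nociceptors called lower, had 4.65, 1.31 and 1.55 CPM in control and 2.14, 0.436 and 1.08 CPM at 24 HPI, with overlap between batches. Its log2 fold change of -1.02 (standard error 0.27, adjusted p = 1.33e-02) did not pass without control replicate 1 (-0.84), nor without 24 HPI replicate 1 (-1.07) or 2 (-0.85).

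Sensory transduction channels of the TRP, ASIC, P2X and Piezo families were lower in 6 of 26 tested members and higher in 1, with a median of -0.10. Trpm3, a sensor of noxious heat, had 57.3, 52.5 and 69.5 CPM in control and 36.8, 32.4 and 43.7 CPM at 24 HPI (-0.67, standard error 0.06, adjusted p = 7.92e-07). The cold sensor Trpm8 had 44.8, 42.7 and 36.4 CPM in control and 34.8, 23.6 and 26.1 CPM at 24 HPI (-0.57, standard error 0.10, adjusted p = 9.54e-04). Neither gene overlapped between the groups, while the ATP-gated channel P2rx3 had a log2 fold change of -0.04 (standard error 0.08, adjusted p = 0.79) and did not pass. Receptors of neuromodulators, such as those of noradrenaline, acetylcholine and opioids, were lower in 15 of 38 tested members and higher in 1, with a median of -0.25. The adrenergic receptor Adra2a, which damps transmitter release, had 14.1, 20.3 and 19.1 CPM in control and 8.37, 12.6 and 13.9 CPM at 24 HPI (-0.62, standard error 0.12, adjusted p = 9.92e-04).

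Genes of synaptic vesicles and their fusion machinery were lower in 23 of 46 tested members and higher in 0, with a median of -0.17. Piccolo (Pclo), a scaffold of the active zone where vesicles fuse, had 165, 212 and 209 CPM in control and 107, 120 and 118 CPM at 24 HPI (-0.77, standard error 0.10, adjusted p = 3.59e-05). Its partner Bsn had a log2 fold change of -0.44 (standard error 0.08) and the vesicle priming gene Unc13a -0.41 (standard error 0.05), and neither overlapped between the groups. Tubulins, the subunits of microtubules, were lower in 8 of 13 tested members and higher in 0, with a median of -0.21. The neuronal isotype Tubb3, also a marker of the neurons themselves, had 3131, 3058 and 2605 CPM in control and 2449, 2354 and 2051 CPM at 24 HPI (-0.37, standard error 0.05, adjusted p = 6.79e-05). The most abundant member that did not pass was Tuba1a (-0.12, standard error 0.05).

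Growth cone and cytoskeleton genes were higher in 5 of 43 tested members (11.6%) and lower in 9 (20.9%), against 5.99% and 9.03% of all genes tested. The actin-binding genes Cnn2 and Tpm4 were higher. Cnn2, a calponin, had 0.587, 0.945 and 0.899 CPM in control and 3.17, 2.32 and 2.07 CPM at 24 HPI (1.62, standard error 0.26, adjusted p = 2.18e-04), and the tropomyosin gene Tpm4 had 36.9, 28.5 and 31.5 CPM in control and 59.9, 62.9 and 53.6 CPM at 24 HPI (0.85, standard error 0.07, adjusted p = 2.64e-07). The microtubule-associated genes Map1b (-0.52, standard error 0.06) and Map1a (-0.50, standard error 0.07) were lower. Axonal transport motors were lower in 7 of 35 tested members and higher in 3, and the heavy chain of dynein, Dync1h1, which carries cargo back to the cell body, had 1514, 1831 and 2173 CPM in control and 984, 1186 and 1334 CPM at 24 HPI (-0.66, standard error 0.08, adjusted p = 1.58e-05). In the intermediate filament list, 2 of 10 passed as higher, Nes and vimentin (Vim, 0.31, standard error 0.06), and 2 as lower, the neurofilament genes Nefh (-0.40, standard error 0.12) and Nefm (-0.35, standard error 0.12). Neither neurofilament gene held against the loss of a library. Nefm lost the test without any of the 6, at -0.30 to -0.41, and Nefh without control replicate 1 (-0.40) or 2 (-0.30) or 24 HPI replicate 2 (-0.36) or 3 (-0.27).

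Axon guidance genes were lower in 21 of 51 tested members and higher in 5, with a median of -0.21. The netrin receptor gene Unc5d had 11.99, 8.21 and 3.40 CPM in control and 24.8, 17.1 and 9.03 CPM at 24 HPI. Replicate 3 was lowest in each group, so the groups overlapped, while in each batch the injured library exceeded its control (1.13, standard error 0.10, adjusted p = 2.64e-07). Slit2, a secreted repellent and branching cue, had 11.8, 8.94 and 10.8 CPM in control and 20.6, 21.6 and 16.2 CPM at 24 HPI (0.89, standard error 0.12, adjusted p = 5.66e-05). The semaphorin gene Sema3a, which makes growth cones collapse, was lower (-0.63, standard error 0.12), as was Plxna4, part of its receptor (-0.39, standard error 0.07).

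Receptors of the nerve growth factor and gp130 cytokine pathways, through which target tissue and glia keep sensory neurons alive, were lower in 4 of 20 tested members of their list and higher in 1. Among the lower members were Lifr (-0.44, standard error 0.06), Il6st, which encodes gp130 itself (-0.37, standard error 0.05), and the neurotrophin receptor Ngfr (-0.37, standard error 0.06). Of 25 tested transcription factors of sensory neuron identity, 4 passed as higher and 0 as lower, with a median of 0.04, and 15 had a log2 fold change above 0 and 10 below. Isl1 had a log2 fold change of 0.26 (standard error 0.06), Tlx3 0.24 (standard error 0.06) and Pou4f1 0.20 (standard error 0.05). Isl1 did not pass without control replicate 3 (0.17) or 24 HPI replicate 1 (0.22), nor Pou4f1 without control replicate 2 (0.18). Cytokine, chemokine and interferon response genes had 7 of 26 tested members higher and 1 lower, with a median of 0.07. Tnfrsf12a, the receptor of the cytokine TWEAK (ENSMUSG00000023905.14, chromosome 17 from 23675445 to 23677468), had 6.12, 4.80 and 5.84 CPM in control and 10.7, 15.2 and 11.6 CPM at 24 HPI. The groups were apart, and the change of 1.14 in log2 (standard error 0.13, adjusted p = 1.10e-05) was under 2-fold, at 0.96, without 24 HPI replicate 2. Tap1, which loads peptides for presentation by MHC class I, had 0.979, 0.727 and 0.849 CPM in control and 2.37, 1.74 and 2.40 CPM at 24 HPI (1.37, standard error 0.23, adjusted p = 3.45e-04). The lower member was the interferon signalling factor Stat2, with 89.3, 85.5 and 80.1 CPM in control and 50.1, 51.6 and 56.2 CPM at 24 HPI (-0.70, standard error 0.06, adjusted p = 7.92e-07). Of the 7 myeloid markers, 2 were tested, and Cd68 (0.93, standard error 0.24) was higher while Aif1 (0.46, standard error 0.20, adjusted p = 0.120) did not pass. Cd68 did not pass without control replicate 2 (0.85) or 3 (0.94) or 24 HPI replicate 2 (0.82). The part of myeloid cells in the cytokine and interferon genes was not tested.

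The remaining lists are given with their shares past the test, to be read against 5.99% higher and 9.03% lower over all genes tested. Cytosolic ribosomal proteins were higher in 7 of 79 (8.86%) and lower in 0, with a median of 0.07. Nuclear-encoded respiratory chain genes were higher in 2 of 89 (2.25%) and lower in 0, with a median of 0.01. No gene of 10 encoded by the mitochondrion passed, with a median of 0.14. The share of counts on mitochondrial genes was 15.2 to 19.8% in control and 17.4 to 24.1% at 24 HPI. Aminoacyl-tRNA synthetases were higher in 1 of 20 and lower in 3, and glycolysis and hypoxia genes in 1 and 3 of 36. Autophagy and lysosome genes were higher in 6 of 41 (14.6%) and lower in 3 (7.32%). TGF-beta and BMP genes were higher in 2 (6.45%) and lower in 4 (12.9%) of 31, and Wnt genes in 1 (3.57%) and 1 (3.57%) of 28. Feedback inhibitors of MAP kinases were higher in 3 of 17 (17.65%) and lower in 2 (11.76%), and the dual leucine zipper kinase and axon degeneration genes in 0 and 3 (17.65%) of 17. KLF and Sp factors were higher in 0 and lower in 1 (6.25%) of 16, and the NuRD, REST and CTCF chromatin genes in 1 (3.33%) and 5 (16.67%) of 30. Of 8 transcription factors that the study tested by lentivirus, 2 passed, Atf3 and Fos, both higher.

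The genes called lower beyond these lists were a mixed group expressed at low levels. Among the 11 protein-coding genes, the metalloprotease gene Tll2 had 2.01, 3.56 and 1.65 CPM in control and 0.750, 1.40 and 0.894 CPM at 24 HPI (-1.26, standard error 0.23, adjusted p = 1.01e-03). The protocadherin gene Pcdha1, a neuronal adhesion protein, had 1.57, 2.25 and 3.05 CPM in control and 0.808, 1.11 and 1.13 CPM at 24 HPI (-1.17, standard error 0.26, adjusted p = 3.91e-03). Both sets of groups were apart, and Pcdha1 did not pass without 24 HPI replicate 3 (-0.97). Pcdha1 shares its 3′ exons with the other genes of its cluster, so its counts can depend on how shared reads were assigned. The embryonic globin gene Hba-x had 0.392, 1.60 and 2.05 CPM in control and 0.0577, 0.242 and 1.08 CPM at 24 HPI, with overlap (-1.58, standard error 0.40). It did not pass without control replicate 2 (-1.30) or 24 HPI replicate 2 (-1.28), and the part of red blood cells, whose marker sums overlapped between the groups, was not tested.

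Genes past the adjusted p as lower had longer exons, which was not so of the 25 called lower. Exon length was taken as the total length of all annotated exons of a gene, and it was known, with GC content, for 13728 of the 13771 genes tested. The median exon length was 7257 bases over the genes past the test as lower, 3901 over those past it as higher and 4418 over all genes tested. It was 2913.5 bases over the genes called lower and 4281 over those called higher. When genes were split into 6 bins of like number by length, the median log2 fold change went from 0.05 in the shortest bin, with a median length of 1454 bases, to -0.08 in the longest. In the shortest bin, 6.42% of genes passed as higher and 2.49% as lower, and in the longest 3.54% and 22.9%. The median of the longest bin was below 0 in each batch, at -0.05, -0.10 and -0.11, and that of the shortest bin above 0, at 0.03, 0.06 and 0.08. With exon length and GC content fitted as offsets in each library beside the replicate block, an alternative chosen after seeing the data, the median of the longest bin was -0.00, and 765 genes passed as higher and 1030 as lower, in place of 825 and 1243. Under these offsets the cholesterol and fatty acid list had 30 of 38 members lower with a median of -0.30, the sodium channels 8 of 13 with -0.33, the synaptic genes 20 of 46 with -0.16, the tubulins, whose median exon length was 2228 bases, 9 of 13 with -0.24, and the guidance genes 18 of 51 lower and 7 higher with -0.16. The p53 targets had 11 of 22 higher with a median of 0.23 and the ribosomal proteins 3 of 79 higher and 2 lower with 0.02. Whether the trend with length reflects the RNA in the cells or its recovery in the libraries was not tested.

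**Figure D4:**
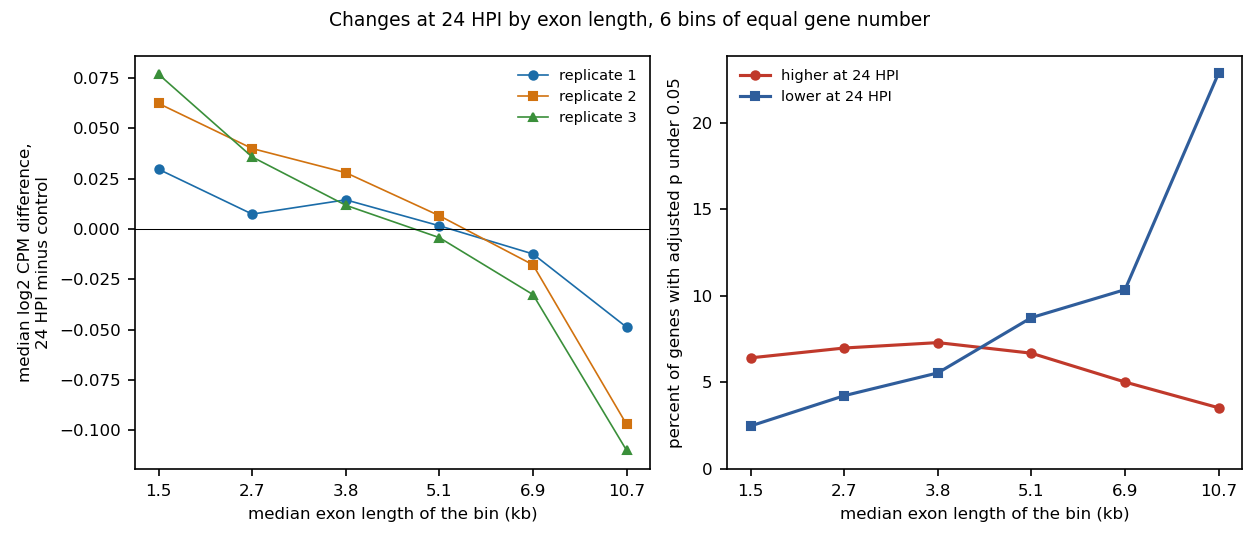
Changes at 24 HPI in 6 bins of genes by exon length, with the median exon length of each bin in kb on the horizontal axis. The left panel gives the median log2 CPM difference of 24 HPI minus control for each replicate number, which ends between -0.05 and -0.11 in the longest bin, and the right panel the percent of genes with an adjusted p under 0.05, where the lower genes go from 2.49% to 22.9%.

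To place the changes at 24 HPI in time, the same libraries were compared with those of cultures collected 16 h post injury. This comparison shares the 24 HPI libraries with that against control. In it, 13 genes were called higher at 24 HPI, 0.0944% of those tested, and 57 lower, 0.414%. Of the 88 genes called higher than control at 24 HPI, 7 were called lower than at 16 HPI and 3 higher, and of the 25 called lower than control, 0 differed from 16 HPI with an adjusted p under 0.05. Atf3 had 109, 126 and 124 CPM at 16 HPI, all above its 24 HPI libraries, and its log2 fold change from 16 to 24 HPI was -1.97 (standard error 0.19, adjusted p = 2.04e-06). The homeobox factor Tgif1, which represses TGF-beta responses, had 4.94, 5.53 and 6.38 CPM at 16 HPI and 1.04, 1.70 and 2.45 CPM at 24 HPI (-1.72, standard error 0.27, adjusted p = 3.46e-04), and the MAP kinase phosphatase Dusp1 had 29.9, 32.7 and 36.8 CPM and 12.2, 17.2 and 12.2 CPM (-1.24, standard error 0.11, adjusted p = 6.11e-07). Tgif1 had 0.245, 0.291 and 1.25 CPM in control, and its call against control (1.50, standard error 0.40) did not hold without control replicate 1 (1.28) or 2 (1.33), nor without 24 HPI replicate 2 (1.40) or 3 (1.53). Tnfrsf12a had a mean of 26.5 CPM at 16 HPI and 12.5 CPM at 24 HPI (-1.07, standard error 0.11), and Jun, chosen here after its values were seen, 68.4 and 37.4 CPM (-0.86, standard error 0.09, adjusted p = 5.58e-06).

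Genes that were higher at 24 than at 16 HPI included Phlda3, with a mean of 11.3 CPM at 16 HPI and 19.5 CPM at 24 HPI (0.81, standard error 0.11, adjusted p = 5.08e-05), and Cnn2, with 1.24 and 2.52 CPM (1.02, standard error 0.24, adjusted p = 7.87e-03). The latter did not pass without 24 HPI replicate 1. Hspb1 rose from 4.11 to 5.78 CPM (0.51, standard error 0.16, adjusted p = 0.045). The means of Phlda3 at 1, 3 and 8 HPI were 6.42, 6.62 and 6.95 CPM beside 6.11 CPM in control, and those of Hspb1 were 2.17, 2.12 and 2.17 CPM beside 2.18 CPM. Fasn was lower at 24 than at 16 HPI, with 935 and 1127 CPM (-0.25, standard error 0.06, adjusted p = 6.49e-03). Dhrs9 (0.18, standard error 0.27), Nts (0.25, standard error 0.27) and Fosb (-0.14, standard error 0.30) did not pass between 16 and 24 HPI, with adjusted p of 0.757, 0.631 and 0.835. Of the 16 HPI libraries, replicate 1 stood apart in residual ribosomal RNA, whose list summed to 49770 CPM there and to 14920 and 18110 CPM in the others, all above the 10090 to 14460 CPM over the 6 libraries of control and 24 HPI. Without replicate 1, 38 genes were called between 16 and 24 HPI in place of 70, and Atf3 had -1.80.

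**Figure D5:**
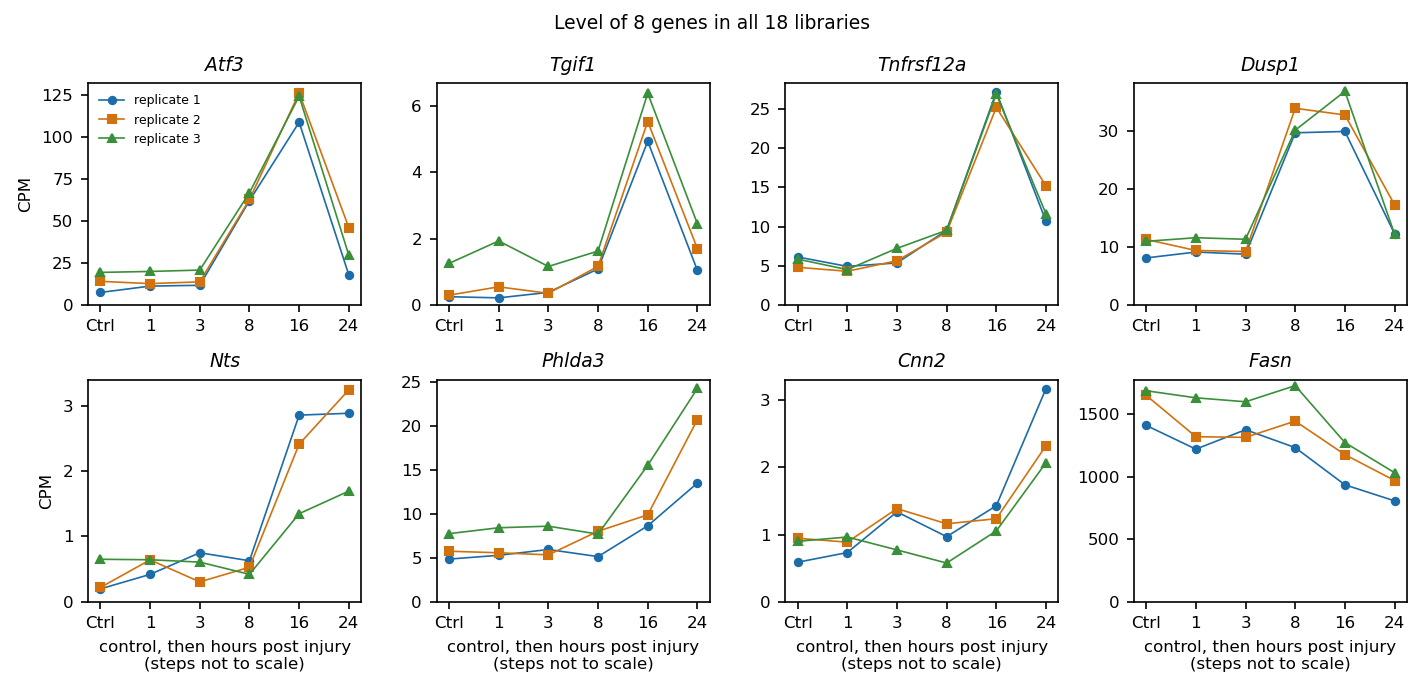
CPM (vertical axis) of 8 genes in all 18 libraries, control followed by the time points from 1 to 24 HPI (horizontal axis, steps not to scale), each point a library. Atf3, Tgif1, Tnfrsf12a and Dusp1 are highest at 16 HPI or, for Dusp1, about level at 8 and 16 HPI and are lower at 24 HPI, whereas Phlda3 and Cnn2 are highest and Fasn lowest at 24 HPI.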

How the data were processed

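RNA was sequenced from 18 libraries in 6 groups of 3, of which control and 24 HPI are compared here. The authors deposited counts per gene for each library, neither normalized nor batch-corrected. Total RNA was depleted of ribosomal RNA and made into SMARTer cDNA per the labels. The submitters' processing notes name FastQC, STAR, HTSeq, DESeq2 and build mm10, while the study's methods name cutadapt, STAR and featureCounts, and the entries on no gene carry the names that HTSeq writes. Those entries held 25.8 to 31.2% of the counts in the 6 libraries and were left out of library sizes and tests. No pair of libraries was identical. Names and exon lengths came from GENCODE vM21 (GRCm38), which matched 47224 of 47643 identifiers, 39106 of them with the same version. Whether the counting used strand is not given in the sources used here, so genes that overlap or lie antisense may share reads.

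Counts were fitted with edgeR 4.0.16 (R 4.3.3, limma 3.58.1), TMM scaling and its quasi-likelihood model, in which all 18 libraries entered and time point and replicate number were the terms, two-sided, with Benjamini-Hochberg adjustment over 13771 genes. Called genes had an adjusted p below 0.05 and a log2 fold change beyond 1 in size. The study used DESeq2 after a batch correction whose settings are not given in the sources used here. Each standard error is the log2 fold change over the square root of the F statistic. Log2 CPM had a prior count of 2. Tables and figures used Python 3.11.15, pandas 2.3.3, scipy 1.17.1 and matplotlib 3.10.9. Simulated counts of this comparison, with 200 of 13771 genes changed 3-fold, gave 200 recovered and 3 false calls. The changed genes were drawn only from those with a mean above 2 CPM. The genes called higher had a median of 0.810 CPM in control, so recovery at such low levels was not simulated. Nor was recovery of changes nearer to 2-fold. The simulated counts took their spread and batch effects from these libraries and were fitted with the same model, so they check the procedure only. With the group means removed, control and 24 HPI libraries of the same number correlated across genes with r of 0.621 to 0.732 and those of different numbers with a mean of -0.34, so the numbers were treated as batches. Alternatives changed the scaling, the filter, the tool (DESeq2 1.42.0), the block (2 RUVs factors in its place, or none), the genes or groups fitted, or left out each library in turn, and length and GC offsets (splines of 5 degrees of freedom) were added after seeing the data.

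The genes named are the 15 called protein-coding genes with the largest change in each direction that moved alike in all batches, called members of the gene lists, up to 4 members of each list past the test and 2 most abundant members not past it, and 3 noncoding genes a direction. Of the 264 so chosen, those that carry a result are described. The comparison, the lists and this rule were chosen with earlier results of these data known. A few items are not reported here.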

Additional observations from a re-analysis of the deposited data

Results flagged for a closer look

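The test of 24 HPI against 16 HPI itself called 15 of the genes named or called at 24 HPI, so their difference from control was not the same at both times (edgeR's quasi-likelihood test, Benjamini-Hochberg adjustment). As log2 fold changes of 24 HPI over 16 HPI, Atf3 had -1.97, Tgif1 -1.72, the tumour necrosis factor receptor gene Tnfrsf1b -1.27, Dusp1 -1.24, Cfap43 -1.20, Snx33 -1.10, Grk1 -1.08, Tnfrsf12a -1.07, Dusp16 -1.04, the stress factor Ddit3 -1.04, Dusp4 -1.03 and Ppp1r15a, which restarts translation after stress, -1.01. The syndecan gene Sdc1 (1.04), Kank2 (1.20) and the calponin gene Cnn2 (1.02) were higher at 24 HPI. Sdc1, Kank2, Snx33, Cfap43 and Tnfrsf1b lie outside the rule for named genes and are given because they were called.

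Against control at 24 HPI, Dusp4 (0.98), Dusp1 (0.46) and Ppp1r15a (0.38) were higher and Dusp16 (-0.48) lower. Of these, Dusp4 alone passed with each library left out. Dusp1 did not without control replicate 1 (0.36) or 24 HPI replicate 2 (0.31), Ppp1r15a had 0.24 to 0.42 in the 4 cases where it did not, and Dusp16 -0.52 to -0.32 in its 5. Ddit3 did not pass against control (0.08, adjusted p = 0.697).

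Atf3 and Dusp1 were called in all 17 alternatives of this comparison, Tnfrsf12a in 14, Dusp4 and Dusp16 in 15 each, and Grk1 in 5 of 12. Without 16 HPI replicate 1, the library with the most residual ribosomal RNA, Atf3 had -1.80, Dusp1 -1.20, Tgif1 -1.48, Ddit3 -0.91, Ppp1r15a -0.81, Dusp4 -0.82 and Tnfrsf12a -0.98, all past the adjusted p, and Grk1 was not tested. Groups of 3 are too small for a test of single libraries that stand apart.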

How the results depend on the processing

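None of the 113 called genes changed sign under any of 17 alternatives, while genes that did not pass and lay near 0 could, such as Gap43 (-0.04 to 0.07) and Ddit3 (-0.06 to 0.19). In all, 19 of the 88 genes called higher kept their call in each alternative that tested them. These were Cnn2, Nts, Dcn, Upp1, Arc, Arhgap31, Nfkbie, Rin1, Mmp19, Dhrs9, Prr32, Smim3, Emp3, Phlda3, Cd109, Inka2, Syt12, Bpifc and Heg1. None of the 25 called lower did so. Without the replicate block, 23 genes were called in place of 113 (22 higher and 1 lower), 153 genes passed the adjusted p in place of 2068, and 18 were called between 16 and 24 HPI in place of 70. DESeq2's Wald test called 72, of which 12 were lower, and 43 between 16 and 24 HPI. When a gene had to exceed 1 CPM in every one of the 18 libraries, 24 were called, 22 higher and 2 lower, and 21 between 16 and 24 HPI. This filter tests fewer of the low genes that hold most calls. With no filter, 190 were called, 140 higher and 50 lower, and 108 between 16 and 24 HPI, and with at least 10 counts in all, 40 were called lower. Leaving out each library gave 85 to 123 calls, 62 to 105 higher and 16 to 29 lower, the fewest lower without 24 HPI replicate 1. It gave 1239 (without control replicate 2) to 1554 genes past the adjusted p, and 38 (without 16 HPI replicate 1) to 80 calls between 16 and 24 HPI, with 46 without 24 HPI replicate 3. Length and GC offsets, with the replicate block, gave 116 calls, 87 higher and 29 lower, 1795 genes past the adjusted p and 66 calls between 16 and 24 HPI. Upper-quartile scaling moved the median of all genes most, to 0.03. Medians of gene lists moved by over 1.5 times in some lists, from 0.03 to 0.19 for the regeneration-associated genes, 0.095 to 0.32 for the AP-1 genes, 0.09 to 0.22 for the BCL2 family, 0.07 to 0.18 for the cytokine and interferon genes, -0.16 to -0.05 for the integrated stress response and -0.14 to -0.06 for the TRP, ASIC, P2X and Piezo channels. Medians near 0 could change sign, as with the neurotrophin, GDNF and gp130 list (-0.21 to 0.02) and the matrix list (-0.08 to 0.09). The same held for the MAP kinase inhibitors (-0.03 to 0.10), the retinoid genes (-0.03 to 0.09) and the nuclear-encoded respiratory chain (-0.03 to 0.06). The ribosomal proteins went from 0.02 to 0.11. The cholesterol and fatty acid list stayed at -0.33 to -0.28, the sodium channels at -0.40 to -0.25 and the p53 targets at 0.22 to 0.27. The causes were not tested. Counts under 3 in a library limit what can be said of low genes.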

Other observations

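The genes below were picked after their values were seen, so their number says nothing of the groups they belong to. Nlrc5, which switches on MHC class I genes, had 0.538, 0.218 and 0.649 CPM in control and 1.21, 1.70 and 1.55 CPM at 24 HPI, without overlap (log2 fold change 1.62, standard error 0.32, adjusted p = 1.77e-03). The guanylate-binding gene Gbp7 had a log2 fold change of 1.04 (standard error 0.21), and it was under 2-fold without control replicate 1 (0.89) or 24 HPI replicate 1 (0.99). B2m, the light chain of MHC class I, passed with 0.50 (standard error 0.14), whereas the class I genes H2-K1 (-0.10, adjusted p = 0.599) and H2-D1 (-0.00, standard error 0.08) did not pass.

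Ltbr, the lymphotoxin receptor, had 3.82, 2.69 and 3.95 CPM in control and 8.25, 5.76 and 7.29 CPM at 24 HPI, without overlap (1.02, standard error 0.12, adjusted p = 1.49e-05). It was under 2-fold without control replicate 1 (0.96) or 24 HPI replicate 1 (0.999). Tnfrsf1b had 0.539, 0.654 and 1.50 CPM in control and 1.33, 2.23 and 2.07 CPM at 24 HPI (1.06, standard error 0.27), groups that overlapped, and it did not pass without 24 HPI replicate 2 (0.78). Genes called in every alternative outside the lists included Rin1, a regulator of RAS signalling and endocytosis, with 3.33, 4.22 and 6.39 CPM in control and 11.3, 16.4 and 11.8 CPM at 24 HPI (1.50, standard error 0.16, adjusted p = 3.43e-06). They also included Heg1, a transmembrane protein of cell junctions, with 5.09, 5.74 and 5.29 CPM in control and 14.8, 16.9 and 11.7 CPM at 24 HPI (1.41, standard error 0.12, adjusted p = 2.92e-07).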
